A study of Mus musculus with 15 samples.

Results

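The genes described here encode hydrolases of the lysosome, the small proteins that activate them, and the channels and carriers of the lysosomal membrane. A list of 36 such genes, without cathepsins, LAMP proteins or subunits of the proton pump, was followed in whole mouse kidneys. A gene was taken where an array entry carried 1 gene symbol equal to it, which held for 35 of the 36 listed genes among 22180 genes tested, and Glb1 (beta-galactosidase), whose entry carries several symbols, was not analysed here.

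All mice carried a PRCC-TFE3 knock-in in the Rosa26 locus behind a loxP-stop-loxP (LSL) cassette. PRCC-TFE3 is a fusion, known from translocation renal cell carcinoma, of a splicing-associated protein with TFE3, a transcription factor of the MiT family. The groups differed in the KSP-Cre transgene, which drives Cre recombinase from the promoter of Cdh16 (Ksp-cadherin) in kidney tubule epithelium. They were PRCC-TFE3; KSP-Cre- mice at 4 months (n = 4) and 7 months (n = 3), called Cre- below, and PRCC-TFE3; KSP-Cre+ mice at 4 months (n = 4) and 7 months (n = 4), called Cre+, with 1 array per mouse. No Cre+ group without the knock-in was analysed here, so effects of the fusion and of Cre cannot be told apart, and sex is not among the labels. The kidney label fitted the markers: proximal tubule markers averaged 11.13 or above on the log2 scale in all 7 Cre- arrays. Gpnmb, a known target of MiT factors, was higher in Cre+ kidneys by 6.30 on the log2 scale at 4 months (SE 0.17; limma adjusted p = 1.5e-13), and the 7-month difference was 7.74 (SE 0.18; adjusted p = 3.2e-14). Tfe3 itself differed by 0.03 and 0.22 (SE 0.09 and 0.10; adjusted p = 0.92 and 0.14), on an entry that need not cover the part of TFE3 held in the fusion.

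Lysosomal hydrolases work at acid pH and take lipids, proteins and glycans apart, the glycans in a fixed order in which each enzyme removes the group that the previous one exposed. Transporters then export the sugars, amino acids and sterols, and the loss of single enzymes or carriers causes the lysosomal storage diseases. TFE3 and its relative TFEB are known to bind the E-box CACGTG, often as the longer TCACGTGA, near the start of many lysosomal genes. In the kidney, the proximal tubule takes up filtered protein and is rich in lysosomes, and macrophages are rich in them as well.

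The E-box was searched for on both strands of the RefSeq promoter windows of GRCm38.p6, which run from 250 bases before the start of a gene to 50 bases from it. A window was found for 32 of the 36 genes (none for Aga, Galns, Asah1 and Npc1). The table held 32851 windows of 27025 genes, and a gene was counted where any of its windows held the motif. CACGTG was in 9 of the 32 genes (28.1%), against 2187 of 27025 genes of the table (8.09%). All 9 also held TCACGTG, which contains it and was in 4.29% of all genes. The form extended on both sides, TCACGTGA, was in 4 of 32 (12.5%) against 1.12%, and the related TCATGTG was in 5 of 32 (15.6%) against 4.31%.

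The following stretches of 100 bases, all before the start of the gene and 5' to 3' on the gene's strand, show the 3 genes that rose and held E-boxes, 1 of the 5 measured genes with E-boxes that did not pass the test (Clcn7, the one with TCACGTGA), and the genes with the largest rise and the largest fall among the members, neither of which held one. Capitals mark CACGTG. In GRCm38.p6 they are chrX:134601156-134601255 (minus strand) for Gla, chr8:3500410-3500509 (plus) for Mcoln1, chr7:126583322-126583421 (minus) for Cln3, chr17:25133291-25133390 (plus) for Clcn7, chr9:59539440-59539539 (plus) for Hexa and chr19:34527475-34527574 (minus) for Lipa.
Gla: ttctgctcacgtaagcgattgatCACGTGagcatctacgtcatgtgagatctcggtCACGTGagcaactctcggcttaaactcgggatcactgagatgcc
Mcoln1: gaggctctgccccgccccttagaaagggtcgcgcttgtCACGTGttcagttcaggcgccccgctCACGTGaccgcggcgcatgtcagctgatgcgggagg
Cln3: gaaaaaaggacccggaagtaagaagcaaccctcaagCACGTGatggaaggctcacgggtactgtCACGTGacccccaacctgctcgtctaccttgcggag
Clcn7: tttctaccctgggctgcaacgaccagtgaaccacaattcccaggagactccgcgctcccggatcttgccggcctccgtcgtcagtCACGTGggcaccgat
Hexa: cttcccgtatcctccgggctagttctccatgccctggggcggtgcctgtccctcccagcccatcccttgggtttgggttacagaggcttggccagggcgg
Lipa: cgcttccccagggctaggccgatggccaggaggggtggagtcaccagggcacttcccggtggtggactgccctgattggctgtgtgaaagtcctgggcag

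Positions that follow are those of the first base of CACGTG, counted from the start of the gene. Gla held 2 copies of TCACGTGA, at -227 and -194. Mcoln1 and Cln3 each held 1 such copy, at -45 and -121, and 1 copy extended on one side only, at -71 and -149. Clcn7 held 1 copy extended on one side at -15 and a copy of TCACGTGA at 7, past the start and so outside the stretch printed. Set beside the array results that follow, CACGTG was in 3 of the 9 members with a window that were higher at 7 months. It was in 0 of the 7 that were lower and 5 of the 15 that were not called (Naglu, Gaa, Sgsh, Arsa and Clcn7). TCACGTGA was in 3 of 9, 0 of 7 and 1 of 15. The related TCATGTG was in 1 of 9, 1 of 7 (Acp5, at -90) and 3 of 15. A match is a description of the letters in these windows, and binding was not measured.

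**Figure D1:**
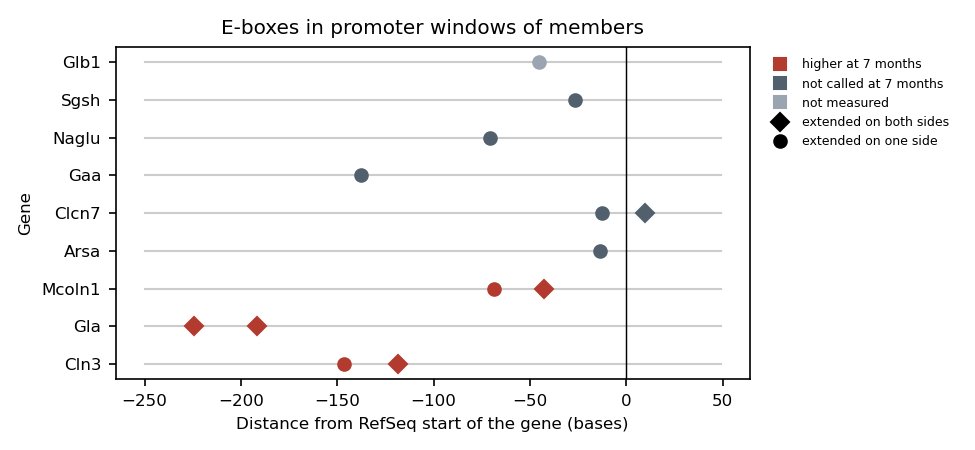
Position of CACGTG in the promoter windows of the 9 members that hold it, in bases from the RefSeq start (grey lines span the window). Diamonds are copies extended on both sides (TCACGTGA), circles copies extended on one side, and colours give the call at 7 months; 3 of the 9 genes were higher, 5 were not called and 1 was not measured.

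In Cre+ kidneys the members split. At 4 months 6 of 35 were higher and 0 lower (limma, Benjamini-Hochberg adjusted p below 0.05 over all genes), beside 2.73% of all genes higher and 0.803% lower. At an unadjusted p below 0.05, 8 were higher and 1 was lower, and the plain linear model also called 0 lower. That unadjusted level was passed by 3616 of all 22180 genes, in either direction. At 7 months 10 were higher and 7 lower, beside 11.7% and 10.8% of all genes. The median member differed by 0.09 at 4 months and 0.18 at 7 months on the log2 scale, where the medians over all genes were 0.05 and -0.04. All 6 genes called at 4 months were called in the same direction at 7 months, 4 more were higher and 7 lower only by the 7-month test, and 18 were not called at either age. When each array was centred on its median, the split over all genes at 4 months was 492 higher and 435 lower in place of 606 and 178, and at 7 months 2441 and 3208 in place of 2597 and 2394. With quantile normalization it was 587 and 280, and 2544 and 3102.

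The Cre+ and Cre- arrays did not overlap in 6 of the 6 members called at 4 months and in 15 of the 17 called at 7 months, the exceptions being Pla2g15 and Slc17a5. A call selects for such separation. Of the members not called, 4 of 29 at 4 months and 3 of 18 at 7 months did not overlap. Over all genes, called or not, 9.46% did not overlap at 4 months and 29.2% at 7 months. At both ages 8 members did not overlap (Hexa, Gla, Idua, Psap, Ctns, Mcoln1, Asah1 and Lipa), beside 6.4% of all genes.

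**Figure D2:**
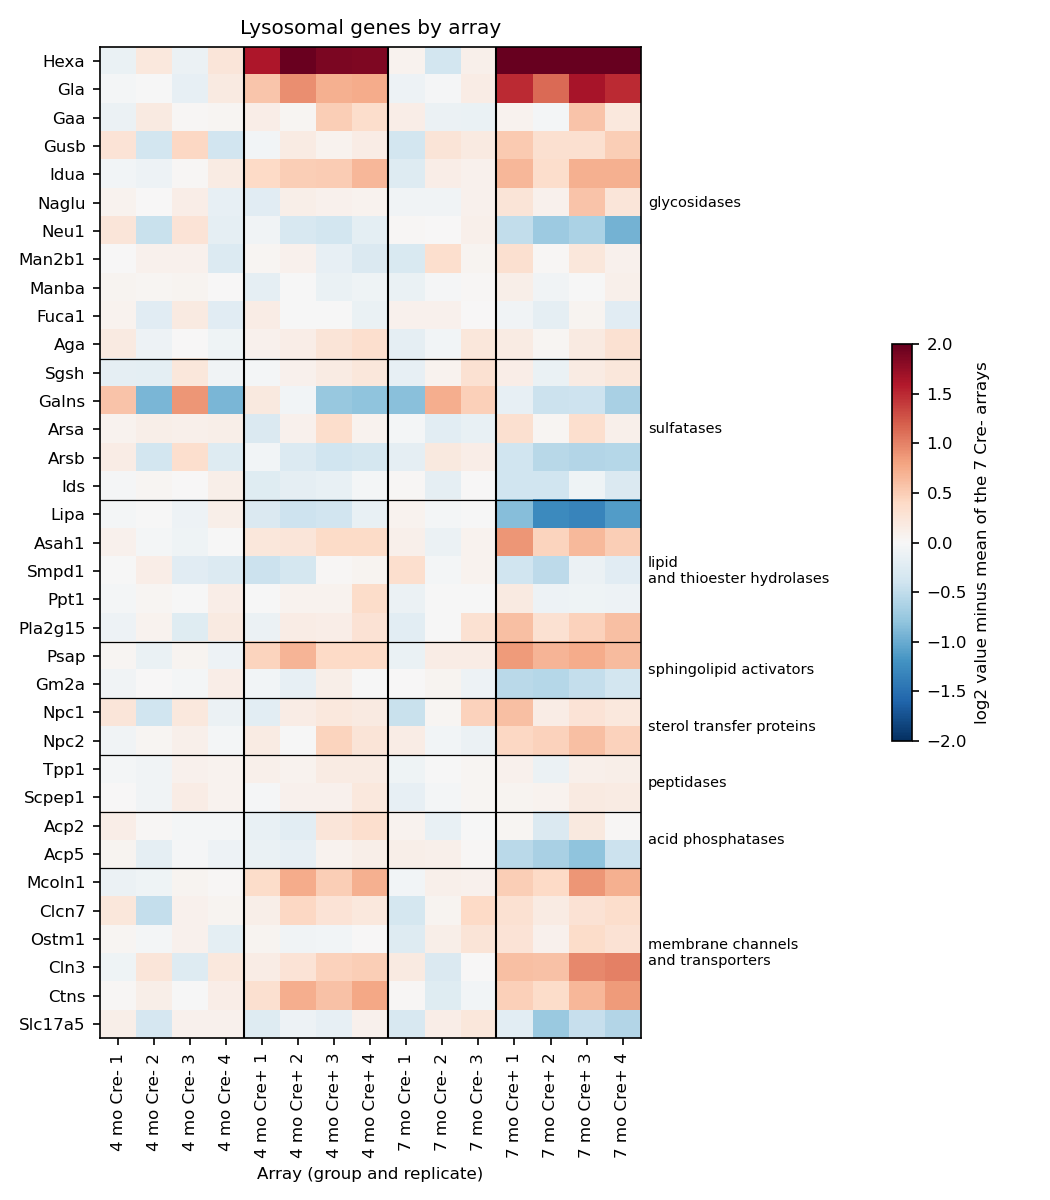
Log2 value of each of the 35 measured genes on each of the 15 arrays, minus the gene's mean over the 7 Cre- arrays, with genes ordered by role; the colour scale ends at -2 and 2, and Hexa passes its upper end. Red cells fill the Cre+ columns for Hexa, Gla, Psap, Mcoln1 and Ctns at both ages, and blue cells fill the 7-month Cre+ columns for Lipa, Neu1, Acp5 and Gm2a.

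Among 11 measured glycosidases, which remove sugars from glycolipids, glycoproteins and glycosaminoglycans, 3 were higher and 0 lower at 4 months, and 3 were higher and 1 lower at 7 months. Hexa, the alpha subunit of beta-hexosaminidase, which cleaves GM2 ganglioside, was the member with the largest rise. Its log2 values were 8.01, 8.36, 8.04 and 8.39 in 4-month Cre- kidneys, 9.76, 10.12, 10.04 and 10.01 in 4-month Cre+, 8.22, 7.78 and 8.25 in 7-month Cre-, and 10.40, 10.36, 10.62 and 10.53 in 7-month Cre+. Every Cre+ array lay above every Cre- array. The rise was 1.78 at 4 months (SE 0.13; 3.43-fold; limma adjusted p = 1.1e-07) and 2.39 at 7 months (SE 0.14; 5.25-fold; adjusted p = 4.1e-09).

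Gla, alpha-galactosidase A, which removes the terminal galactose of globotriaosylceramide, read 5.83, 5.87, 5.71 and 6.05 in 4-month Cre-, 6.43, 6.81, 6.59 and 6.61 in 4-month Cre+, 5.78, 5.85 and 6.03 in 7-month Cre-, and 7.37, 7.00, 7.52 and 7.37 in 7-month Cre+ kidneys. The 4-month Cre+ arrays lay above all Cre- arrays and below all 7-month Cre+ arrays. Its difference was 0.75 at 4 months (SE 0.12; 1.68-fold; adjusted p = 0.0014) and 1.43 at 7 months (SE 0.13; 2.69-fold; adjusted p = 6.8e-07). Idua, alpha-L-iduronidase, which acts on heparan and dermatan sulfate, read 6.45, 6.40, 6.53 and 6.67, then 6.90, 7.00, 7.01 and 7.16 at 4 months, and 6.24, 6.63 and 6.59, then 7.17, 6.86, 7.21 and 7.21 at 7 months, Cre- before Cre+. All 8 Cre+ arrays were above all 7 Cre- arrays. The rise was 0.50 at 4 months (SE 0.11; adjusted p = 0.019) and 0.63 at 7 months (SE 0.12; adjusted p = 0.0012). The 4-month call of Idua was lost without any 1 of 5 arrays: Cre- replicate 1, 2 or 3 (adjusted p = 0.065, 0.056 and 0.052) and Cre+ replicate 3 or 4 (0.054 and 0.068).

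Neu1, the sialidase that removes terminal sialic acid, went the other way at 7 months. It read 9.45, 8.76, 9.49 and 9.03 in 4-month Cre-, 9.14, 8.89, 8.85 and 9.02 in 4-month Cre+, 9.23, 9.22 and 9.31 in 7-month Cre-, and 8.72, 8.48, 8.58 and 8.26 in 7-month Cre+ kidneys. The 4-month groups overlapped and the 7-month groups did not. The difference was -0.20 at 4 months (SE 0.15; adjusted p = 0.54) and -0.75 at 7 months (SE 0.16; 1.68-fold lower; adjusted p = 0.0021). The remaining 7 glycosidases (Gaa, Gusb, Naglu, Man2b1, Manba, Fuca1 and Aga) were not called at either age, with 7-month differences from -0.17 (Fuca1) to 0.40 (Gusb).

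None of the 5 sulfatases, which strip sulfate from glycosaminoglycans and sulfatide, was called at 4 months, where 0 also had an unadjusted p below 0.05, and 1 was called at 7 months. Arsb, arylsulfatase B, which acts on dermatan and chondroitin sulfate, read 9.79, 9.27, 9.97 and 9.39 in 4-month Cre- and 9.58, 9.37, 9.24 and 9.29 in 4-month Cre+ kidneys, and 9.46, 9.83 and 9.78 in 7-month Cre- and 9.24, 9.09, 9.06 and 9.07 in 7-month Cre+ kidneys. All 4 Cre+ arrays at 7 months were below the 3 Cre- arrays. The 7-month difference was -0.57 (SE 0.15; 1.49-fold lower; adjusted p = 0.012). It was not called without Cre- replicate 2 of that age (adjusted p = 0.062) or with the mean of both entries of the gene (-0.30, adjusted p = 0.057). The other entry of Arsb lay between 3.56 and 4.14, below the median of every array. Sgsh, Galns, Arsa and Ids differed by 0.03, -0.55, 0.33 and -0.25 at 7 months and were not called. Arsa was called higher without 4-month Cre+ replicate 1 (adjusted p = 0.036), and Ids lower without 7-month Cre+ replicate 3 (-0.32, adjusted p = 0.036).

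Of the 5 lipid and thioester hydrolases 0 were called at 4 months, with 2 at an unadjusted p below 0.05, and at 7 months 2 were higher and 2 lower. Lipa, lysosomal acid lipase, which splits cholesteryl esters and triglycerides, had the largest fall of any member. It read 11.21, 11.24, 11.15 and 11.36 in 4-month Cre-, 10.96, 10.83, 10.87 and 11.10 in 4-month Cre+, 11.31, 11.21 and 11.24 in 7-month Cre-, and 10.40, 9.98, 9.93 and 10.13 in 7-month Cre+ kidneys. The Cre- arrays of both ages lay above all 4-month Cre+ arrays, and these lay above all 7-month Cre+ arrays. The difference was -0.30 at 4 months (SE 0.11; adjusted p = 0.15), which did not pass the test, and -1.14 at 7 months (SE 0.12; 2.21-fold lower; adjusted p = 2.2e-06).

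Asah1, acid ceramidase, read 8.44, 8.32, 8.27 and 8.35 in 4-month Cre-, 8.59, 8.60, 8.74 and 8.74 in 4-month Cre+, 8.46, 8.25 and 8.43 in 7-month Cre-, and 9.24, 8.80, 9.01 and 8.85 in 7-month Cre+ kidneys. Its groups did not overlap at either age, and the difference was 0.32 at 4 months (SE 0.10; adjusted p = 0.11) and 0.59 at 7 months (SE 0.11; 1.51-fold; adjusted p = 0.00083). Smpd1, acid sphingomyelinase, read 8.24, 8.37, 8.01 and 7.97, then 7.81, 7.89, 8.26 and 8.29 at 4 months, and 8.58, 8.21 and 8.32, then 7.84, 7.72, 8.13 and 8.01 at 7 months, Cre- before Cre+. The 4-month groups overlapped, and at 7 months the Cre+ arrays were the lower ones. The 7-month difference of Smpd1 was -0.45 (SE 0.15; adjusted p = 0.04), and it was not called without Cre- replicate 1 or 3 (adjusted p = 0.17 and 0.066), without Cre+ replicate 1, 2 or 4 (0.089, 0.11 and 0.054) or in the plain linear model (0.067).

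Pla2g15, lysosomal phospholipase A2, was higher by 0.46 at 7 months (SE 0.14; adjusted p = 0.026) with overlapping arrays. That call was lost without Cre- replicate 1 or 2 (adjusted p = 0.14 and 0.081) or Cre+ replicate 1 or 4 (0.066 and 0.068), and with the mean of its entries the difference was -0.003 (adjusted p = 0.99). Its other entry lay between 3.43 and 4.3, below the median of every array. Ppt1, palmitoyl-protein thioesterase, differed by 0.02 at 7 months and was not called.

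The 2 sphingolipid activators, which lift lipids from the membrane for the hydrolases, moved in opposite directions at 7 months. Psap, the precursor of the saposins, read 11.24, 11.07, 11.26 and 11.10 in 4-month Cre-, 11.65, 11.89, 11.60 and 11.60 in 4-month Cre+, 11.07, 11.35 and 11.35 in 7-month Cre-, and 12.06, 11.89, 11.95 and 11.84 in 7-month Cre+ kidneys. All 8 Cre+ arrays were above all 7 Cre- arrays. The 4-month rise was 0.52 (SE 0.10; adjusted p = 0.0068) and the 7-month rise 0.68 (SE 0.11; 1.6-fold; adjusted p = 0.0002). Gm2a, the activator that presents GM2 ganglioside to hexosaminidase, read 10.38, 10.46, 10.41 and 10.58, then 10.40, 10.28, 10.56 and 10.44 at 4 months, and 10.46, 10.51 and 10.35, then 9.91, 9.88, 9.98 and 10.09 at 7 months, Cre- before Cre+. Its 4-month groups overlapped, with a difference of -0.04, and at 7 months all 4 Cre+ arrays lay below the Cre- arrays, with a difference of -0.48 (SE 0.10; 1.39-fold lower; adjusted p = 0.0019). At 7 months Hexa was higher and Gm2a, whose product works with it, lower in the same kidneys.

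Npc2, the soluble sterol-binding protein that hands cholesterol to Npc1, read 8.22, 8.33, 8.40 and 8.25 in 4-month Cre-, 8.46, 8.29, 8.74 and 8.55 in 4-month Cre+, 8.44, 8.24 and 8.17 in 7-month Cre-, and 8.71, 8.75, 8.90 and 8.75 in 7-month Cre+ kidneys. The 4-month groups overlapped and the 7-month groups did not. The 7-month difference was 0.49 (SE 0.11; 1.41-fold; adjusted p = 0.0038), after 0.21 at 4 months (SE 0.10; adjusted p = 0.34). Npc1, the membrane transporter of the pair, differed by 0.10 and 0.29 and was not called. Neither of the 2 peptidases, Tpp1 (tripeptidyl peptidase) and Scpep1 (a serine carboxypeptidase), was called, with 7-month differences of 0.06 and 0.17.

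Of the 2 acid phosphatases, Acp2 differed by 0.02 at 7 months and Acp5 was lower. Acp5, the tartrate-resistant acid phosphatase of osteoclasts and macrophages, read 7.72, 7.48, 7.65 and 7.56 in 4-month Cre-, 7.53, 7.50, 7.73 and 7.78 in 4-month Cre+, 7.79, 7.77 and 7.69 in 7-month Cre-, and 7.13, 7.02, 6.86 and 7.23 in 7-month Cre+ kidneys. The other 11 arrays all lay above the 4 arrays of the 7-month Cre+ group. Its difference was 0.03 at 4 months and -0.69 at 7 months (SE 0.11; 1.62-fold lower; adjusted p = 0.0002).

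Of the 6 membrane channels and transporters 2 were higher and 0 lower at 4 months, and at 7 months 3 were higher and 1 lower. Mcoln1, the lysosomal cation channel TRPML1, read 8.20, 8.23, 8.36 and 8.33 in 4-month Cre-, 8.68, 9.06, 8.80 and 9.02 in 4-month Cre+, 8.26, 8.41 and 8.39 in 7-month Cre-, and 8.80, 8.71, 9.19 and 9.03 in 7-month Cre+ kidneys. The rise was of like size at both ages, 0.61 (SE 0.12; adjusted p = 0.0056) and 0.58 (SE 0.13; adjusted p = 0.0024). Ctns, cystinosin, which exports cystine, read 8.34, 8.43, 8.31 and 8.44, then 8.63, 9.04, 8.90 and 9.09 at 4 months, and 8.34, 8.07 and 8.25, then 8.79, 8.68, 8.98 and 9.16 at 7 months, Cre- before Cre+. For both genes all 8 Cre+ arrays were above all 7 Cre- arrays. Ctns rose by 0.53 at 4 months (SE 0.12; adjusted p = 0.019) and 0.69 at 7 months (SE 0.13; adjusted p = 0.00085). The 4-month call of Ctns was lost without Cre- replicate 1 or 3 (adjusted p = 0.061 and 0.066) or Cre+ replicate 2, 3 or 4 (0.069, 0.052 and 0.07).

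Cln3, a lysosomal membrane protein lost in a form of Batten disease, read 6.29, 6.63, 6.12 and 6.59 in 4-month Cre-, 6.53, 6.65, 6.85 and 6.87 in 4-month Cre+, 6.56, 6.09 and 6.39 in 7-month Cre-, and 6.99, 6.97, 7.34 and 7.39 in 7-month Cre+ kidneys. The groups overlapped at 4 months, with a difference of 0.32 (SE 0.15; adjusted p = 0.29), and did not at 7 months, where it was 0.83 (SE 0.16; 1.77-fold; adjusted p = 0.00084). Slc17a5, sialin, which exports the sialic acid that Neu1 frees, read 9.95, 9.51, 9.93 and 9.92, then 9.58, 9.74, 9.67 and 9.92 at 4 months, and 9.52, 9.97 and 10.07, then 9.62, 9.09, 9.37 and 9.26 at 7 months, Cre- before Cre+. Its 7-month arrays overlapped, since Cre- replicate 1 lay below Cre+ replicate 1. The difference was -0.52 (SE 0.16; 1.43-fold lower; adjusted p = 0.023), lost without Cre- replicate 2 or 3 (adjusted p = 0.096 and 0.11) or Cre+ replicate 2 or 4 (0.069 and 0.055). Clcn7, the chloride-proton exchanger, and Ostm1, its subunit, differed by 0.25 and 0.22 at 7 months and were not called.

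**Figure D3:**
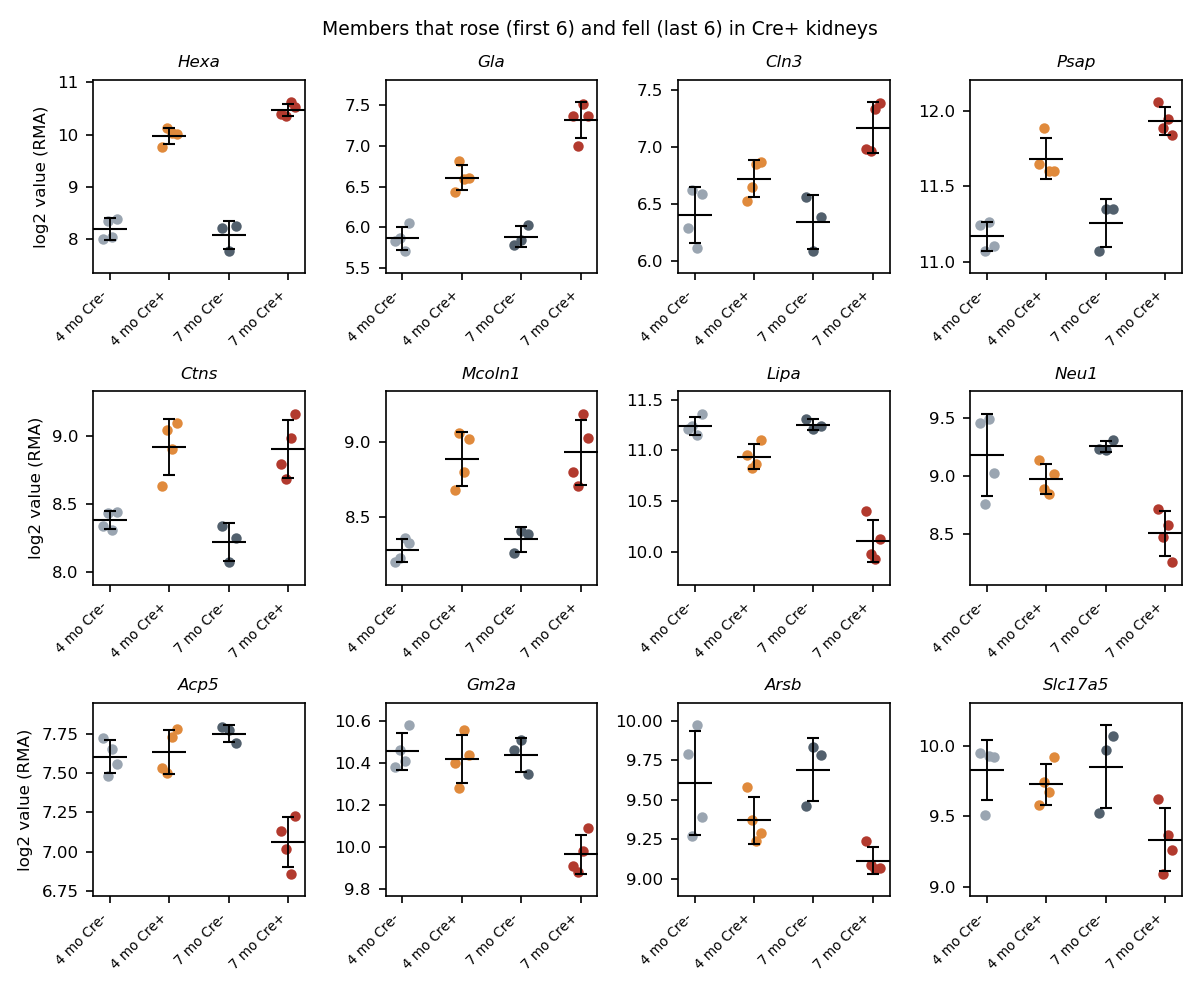
Log2 value on each array (points), with group mean and SD (bars), for 6 members that were higher and 6 that were lower in Cre+ kidneys at 7 months, by group (n = 4, 4, 3 and 4). Hexa, Gla, Psap, Ctns and Mcoln1 are raised at both ages, while the 4-month Cre+ arrays of Neu1, Acp5, Gm2a, Arsb and Slc17a5 overlap those of the Cre- group.

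The members not called spanned -0.30 to 0.32 at 4 months (29 genes) and -0.55 to 0.40 at 7 months (18 genes). Their 95% intervals reached from -1.09 to 0.62 and from -1.44 to 0.80, so for single genes these arrays leave room for changes of up to those sizes. Both lower ends were those of Galns (SE 0.39 and 0.42). The next lowest were -0.53 at 4 months (Arsb and Lipa) and -0.47 at 7 months (Ids). Arrays did not overlap for 4 of the 29 at 4 months (Manba, Ids, Lipa and Asah1) and for 3 of the 18 at 7 months (Gusb, Arsa and Scpep1).

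Whether the Cre difference itself changed with age was tested as the 7-month difference minus the 4-month difference. This change was below 0 for 2 members and above 0 for 0 of 35 by the limma test, beside 1.18% and 0.96% of all genes. At an unadjusted p below 0.05, 4 were above and 4 below 0, and the plain linear model also called 0 above. Of all 22180 genes 3518 passed that unadjusted level, in either direction. Both called members had a lower Cre+ level at 7 months, and at 4 months neither Lipa (-0.30, adjusted p = 0.15) nor Acp5 (0.03, adjusted p = 0.92) was called. Lipa changed by -0.84 (SE 0.16; adjusted p = 0.011) and Acp5 by -0.72 (SE 0.15; adjusted p = 0.02). The call for Acp5 was lost without 7-month Cre- replicate 2 (adjusted p = 0.058). Gla changed by 0.68 (adjusted p = 0.059) and Hexa by 0.61 (adjusted p = 0.11), so a larger rise at 7 months was not called for either, and Gla was called without 4-month Cre+ replicate 2 (0.045) or 7-month Cre+ replicate 2 (0.026).

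In Cre- kidneys 0 of 35 members were higher and 0 lower at 7 than at 4 months with limma, beside 0.00451% and 0% of all genes. At an unadjusted p below 0.05 there were 0 and 0 members, beside 600 of 22180 genes in either direction. The plain linear model also called 0 and 0 members. In Cre+ kidneys 2 were higher and 4 lower, beside 4.12% and 6.71% of all genes. With each array centred on its median 5 were higher (Asah1, Pla2g15 and Cln3 besides Hexa and Gla), beside 5.05% of all genes. With the filter on dim genes and with trend and robust variance 4 were (without Pla2g15), beside 7.37% and 4.21%. Gla was higher by 0.71 (SE 0.12; adjusted p = 0.0012) and Hexa by 0.50 (SE 0.13; adjusted p = 0.021). Lipa was lower at -0.83 (SE 0.11; adjusted p = 0.00014), Acp5 at -0.58 (SE 0.10; adjusted p = 0.0017), Gm2a at -0.45 (SE 0.09; adjusted p = 0.0044) and Neu1 at -0.47 (SE 0.15; adjusted p = 0.0494). These comparisons share arrays with the Cre comparisons and are not independent of them.

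**Figure D4:**
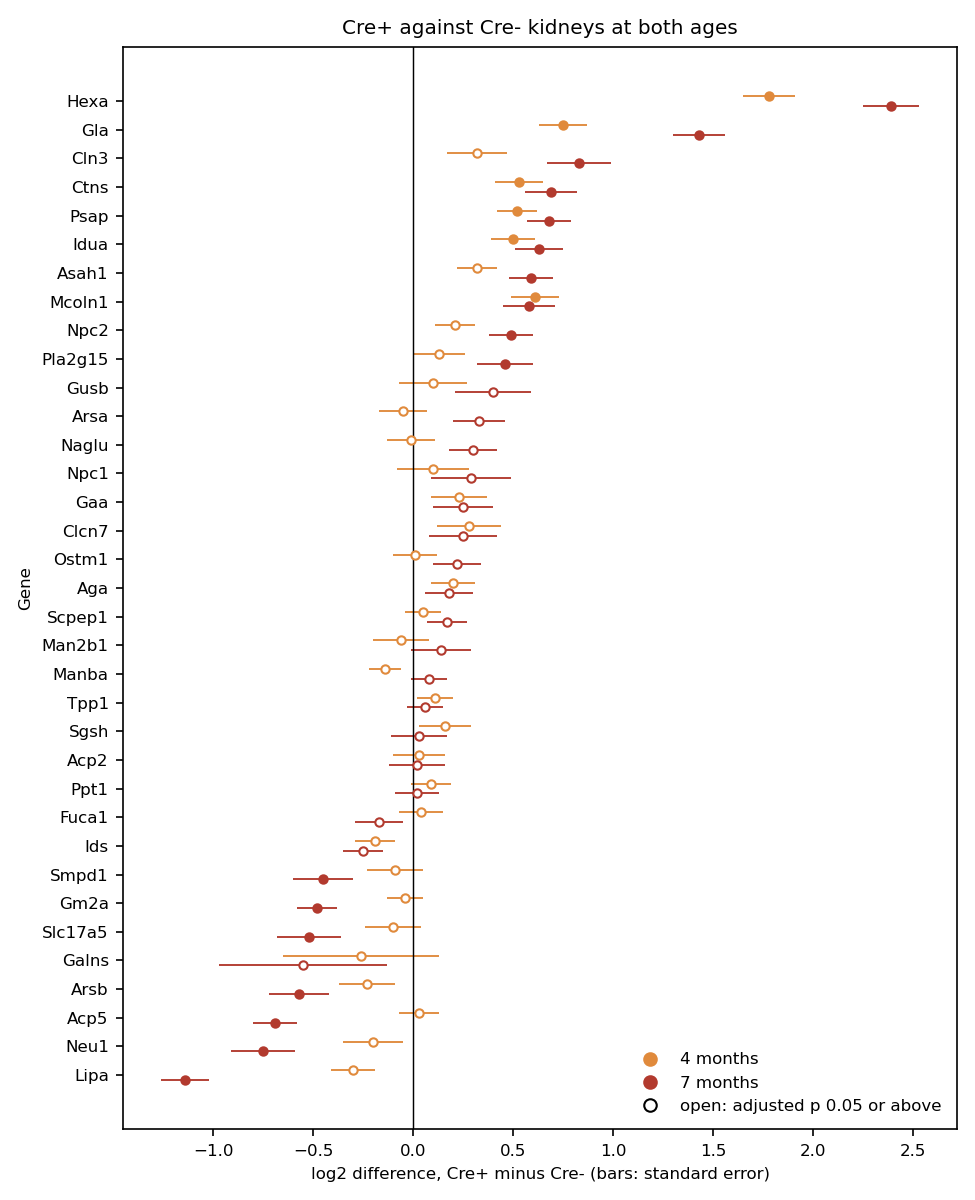
Log2 difference between Cre+ and Cre- kidneys for each of the 35 genes at 4 months (orange) and 7 months (red), with standard errors as bars; filled points have a limma adjusted p below 0.05. At 7 months 10 filled points lie right of 0 and 7 left of it, from 2.39 for Hexa to -1.14 for Lipa.

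Markers of other cell types moved in the same kidneys. Of 16 macrophage markers 5 were higher and 0 lower at 4 months and 14 and 0 at 7 months (medians 0.55 and 1.39). Their mean level per array ran from 5.70 to 6.23 in 4-month Cre-, 6.22 to 6.56 in 4-month Cre+, 5.72 to 6.08 in 7-month Cre- and 7.08 to 7.34 in 7-month Cre+ kidneys. Of 16 proximal tubule markers 3 were lower at 4 months and 16 at 7 months (medians -0.28 and -1.25), with levels of 11.13 to 11.22, 10.80 to 10.98, 11.15 to 11.21 and 9.71 to 10.19 in the same order. Of 7 lymphocyte markers 1 was higher at 4 months and 5 at 7 months, with mean levels of 4.42 to 4.57, 4.56 to 5.0, 4.26 to 4.40 and 5.21 to 5.96. Of 10 markers of the distal nephron and collecting duct, 1 was higher and 0 lower at 4 months and 1 higher and 5 lower at 7 months. In Cre- kidneys the lymphocyte levels lay near the array medians, which ran from 4.40 to 4.55 over the 15 arrays. The part of these shifts in the rises and falls of the lysosomal genes was not tested. In whole kidney, fewer cells of a type and less RNA per cell cannot be told apart.

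Other genes of the pathway, from 3 further lists, also split at 7 months. Of 18 other enzymes of lysosomal breakdown 11 were measured under 1 symbol, and of these 3 were higher and 0 lower at 4 months, and 5 higher and 3 lower at 7 months. Hgsnat, the membrane enzyme that acetylates heparan sulfate for its further breakdown, was higher by 2.17 (SE 0.13; 4.49-fold; adjusted p = 7.1e-09) and 2.84 (SE 0.14; 7.15-fold; adjusted p = 4.9e-10). Man2b2, a lysosomal alpha-mannosidase, was higher by 0.64 (SE 0.11) and 1.06 (SE 0.12), and Plbd1, a phospholipase B domain protein, by 1.06 at 7 months (SE 0.26). The falls at 7 months were those of Ctbs, di-N-acetylchitobiase (-0.81, SE 0.19), Galc, which cleaves galactosylceramide (-0.57, SE 0.16), and Hyal2, a hyaluronidase (-0.56, SE 0.14).

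Of 12 other lysosomal transporters 1 was higher and 0 lower at 4 months, and 4 higher and 3 lower at 7 months. Slc15a4, a histidine and peptide carrier, was higher by 0.94 (SE 0.13) and 1.34 (SE 0.14). At 7 months Tpcn2, an endolysosomal cation channel, was higher by 1.0 (SE 0.17) and Mfsd12, a cysteine importer, by 0.72 (SE 0.14). Slc36a1, a proton-coupled amino acid carrier, was lower at -0.99 (SE 0.18), Slc29a3, a nucleoside carrier, at -0.61 (SE 0.17), and Slc66a1, which exports cationic amino acids, at -0.51 (SE 0.14).

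Of 11 genes that deliver or activate the enzymes 2 were higher and 0 lower at 4 months, and 4 higher and 2 lower at 7 months. Gga2, an adaptor of the mannose 6-phosphate route, was higher by 0.67 (SE 0.13) and 0.90 (SE 0.14). Sort1, sortilin, which sorts Psap among others, was higher by 0.79 (SE 0.15) and 0.74 (SE 0.16). Scarb2, a lysosomal membrane protein that also serves as a sorting receptor, was higher by 0.87 at 7 months (SE 0.11; adjusted p = 2.5e-05). Gnptg, a subunit of the phosphotransferase that builds the mannose 6-phosphate tag, was lower at -0.55 (SE 0.11), while Gnptab, which encodes the other subunits of that enzyme and is named here after its values were seen, was higher by 0.69 (SE 0.10; adjusted p = 0.0001). Sumf1, which activates the sulfatases, was lower at -0.37 (SE 0.11).

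The arrays also fell into 2 kinds by 3 Y-linked genes (Kdm5d, Eif2s3y and Uty), whose mean was 6.92 or above in 8 arrays and 2.98 or below in 7. Sex is not among the labels, so the kinds could not be checked against the sex of the mice. Every group held 2 of each kind but the 7-month Cre- group, with 2 high and 1 low array. All 6 members called at 4 months and all 17 called at 7 months kept the sign of their Cre difference among the high arrays alone and among the low arrays alone. In these smaller sets fewer passed the test, and the shares of all genes called in them are not reported here. At 4 months the high arrays called Hexa and Gla, and the low arrays Hexa, with Gla at 0.64 (adjusted p = 0.053). The high and the low arrays gave 0.52 and 0.51 for Psap (adjusted p = 0.12 and 0.083), 0.59 and 0.63 for Mcoln1 (0.099 and 0.066), 0.51 and 0.56 for Ctns (0.17 and 0.084) and 0.46 and 0.55 for Idua (0.18 and 0.1), none of them called. At 7 months the low arrays lost the calls of Slc17a5 (-0.20, adjusted p = 0.58), Arsb (-0.39, 0.14), Gm2a (-0.43, 0.12), Smpd1 (-0.51, 0.12), Npc2 (0.38, 0.18) and Asah1 (0.47, 0.089). The high arrays lost those of Mcoln1 (0.36, adjusted p = 0.18), Idua (0.40, 0.11), Pla2g15 (0.30, 0.32) and Smpd1 (-0.49, 0.052). The low arrays alone called Gusb (0.79, adjusted p = 0.013), Npc1 (0.68, 0.032) and Ostm1 (0.59, 0.042) higher, and the high arrays alone called Galns lower (-0.91, 0.0048). The single low 7-month Cre- array is assumed there to vary like the other groups. For the change with age in the Cre difference, the high and the low arrays alone gave Lipa -0.75 and -0.96 (adjusted p = 0.27 and 0.13) and Acp5 -0.49 and -0.98 (adjusted p = 0.43 and 0.14), none of them called. A fit of the difference between the kinds within each genotype, chosen after the data were seen, called 4 members higher and 1 lower in the high arrays of Cre- kidneys, beside 2.28% and 1.26% of all genes. In Cre+ kidneys limma called 0 and 0, beside 0.518% and 1.17% of all genes, with 1 higher and 5 lower at an unadjusted p below 0.05. The share of all genes at that unadjusted level is not reported here. The plain linear model was not run for this fit.

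Galns, the galactosamine 6-sulfatase that acts on keratan and chondroitin sulfate, had the largest such difference. It read 8.95, 7.47, 9.26 and 7.46 in 4-month Cre-, 8.57, 8.33, 7.62 and 7.57 in 4-month Cre+, 7.55, 9.11 and 8.86 in 7-month Cre-, and 8.21, 7.95, 7.96 and 7.73 in 7-month Cre+ kidneys. In Cre- kidneys the 4 high arrays were all at 8.86 or above and the 3 low arrays at 7.55 or below. In 4-month Cre+ kidneys the high arrays (8.57 and 8.33) were also above the low ones (7.62 and 7.57), and in 7-month Cre+ kidneys the high arrays (8.21 and 7.95) overlapped the low ones (7.96 and 7.73). The difference was 1.56 in Cre- kidneys (SE 0.15; 2.94-fold; limma adjusted p = 4.5e-06) and 0.54 in Cre+ kidneys (SE 0.13; adjusted p = 0.053). Gusb, beta-glucuronidase, differed by 0.68 in Cre- (SE 0.10; 1.6-fold; adjusted p = 0.00056) and -0.02 in Cre+ kidneys (SE 0.09; adjusted p = 0.92).

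The difference between genotypes in this Y-linked difference was called lower for 2 members and higher for 0, beside 0.582% and 0.131% of all genes. At an unadjusted p below 0.05, 9 were lower and 0 higher, and the share of all genes at that level is not reported here. The difference between genotypes was -1.02 for Galns (SE 0.20; adjusted p = 0.023) and -0.70 for Gusb (SE 0.14; adjusted p = 0.023). For Galns the call was lost without 4-month Cre- replicate 2, 3 or 4 (adjusted p = 0.067, 0.077 and 0.064), 7-month Cre- replicate 1 (0.073) or 7-month Cre+ replicate 2 (0.052). For Gusb it was lost without 4-month Cre- replicate 1, 2, 3 or 4 (0.0502, 0.069, 0.079 and 0.064), 4-month Cre+ replicate 1 or 4 (0.056 each), 7-month Cre- replicate 1 (0.077) or 7-month Cre+ replicate 2 or 4 (0.064 and 0.0503).

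The other members called in Cre- kidneys were Npc1 at 0.57 (SE 0.15; adjusted p = 0.038), Arsb at 0.47 (SE 0.10; adjusted p = 0.013) and Cln3 at -0.37 (SE 0.10; adjusted p = 0.049). In Cre+ kidneys their differences were -0.04 for Npc1, 0.15 for Arsb and -0.33 for Cln3 (adjusted p = 0.89, 0.39 and 0.077). The difference between genotypes was called for none of the 3, at -0.61, -0.31 and 0.04 (adjusted p = 0.15, 0.26 and 0.90). In Cre- kidneys Arsb was not called without 4-month Cre- replicate 2 or 3 (0.087 and 0.082). Npc1 was not called without 4-month Cre- replicate 1, 2 or 3 (0.099, 0.16 and 0.088) or 7-month Cre- replicate 1 or 3 (0.34 and 0.079). Cln3 was not called without any 1 of 14 of the 15 arrays, with adjusted p up to 0.21, and was called without 7-month Cre- replicate 3 (0.019).

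**Figure D5:**
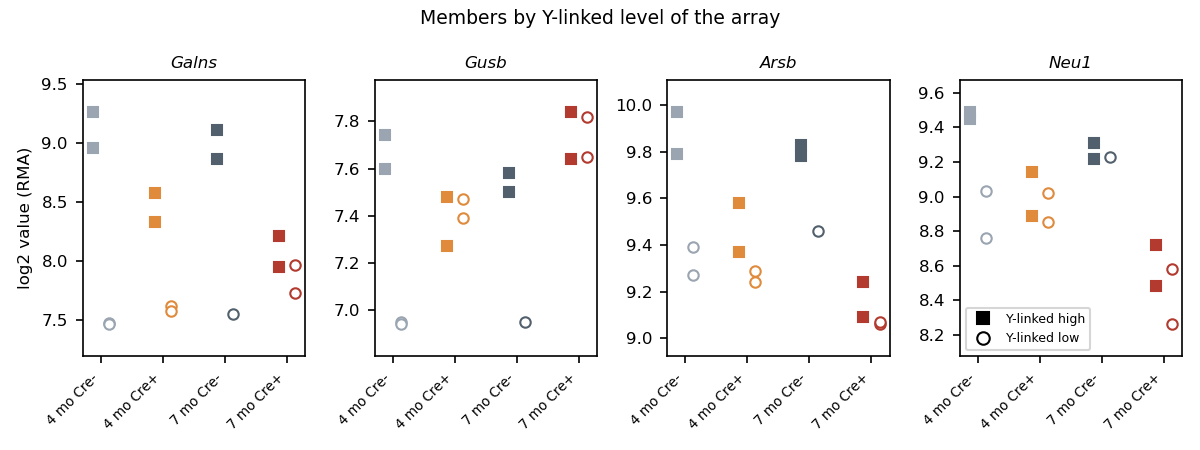
Log2 values of Galns, Gusb, Arsb and Neu1 on each array by group, with filled squares for arrays of high and open circles for arrays of low Y-linked level. For Galns the squares and circles are more than 1 log2 unit apart in Cre- kidneys and closer but still apart in 4-month Cre+ kidneys. In 7-month Cre+ kidneys the squares (8.21 and 7.95) overlap the circles (7.96 and 7.73).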

How the data were processed

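Total RNA of flash-frozen kidneys (100 ng per array, RNA integrity numbers above 7, per the labels' protocols) was run on Mouse Gene 2.0 ST arrays of Affymetrix, each with 1 mouse. The deposited values are log2 values made by the authors with RMA in Partek 6.6, as the series design text says and per the submitters' processing notes; RMA subtracts background, puts arrays on one distribution and combines probes, so values rank arrays within a gene and not genes against each other. The arrays give no depth, and their number limits the precision.

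Of 41345 entries, 23521 carried 1 symbol, 1814 several and 16010 none; 23328 were matched to RefSeq (GRCm38.p6) by Entrez identifier. For genes with several entries (1082, among them Arsb, Smpd1, Pla2g15, Npc1 and Ostm1) the entry of highest mean was used, which left 22180 genes, with no filter. A model of 4 group means over all 15 arrays was fitted with lmFit and eBayes of limma 3.58.1, in R 4.3.3. Tests were two-sided, adjusted by Benjamini-Hochberg over 22180 genes, with a threshold of 0.05. Errors are standard errors of the fit and intervals are 95%. The submitters name an analysis of variance; the plain linear model is the nearest alternative.

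Gene lists and members were chosen with earlier results of these data known. Members past the threshold in a Cre comparison or in its difference between ages were to be described, the 14 with the largest change and every member that fell with all array values; up to 3 rising and 3 falling genes of each other pathway list, largest change at 7 months first, were to be named. Some listed genes are not reported here. Alternatives were quantile normalization, median centring, a filter on dim genes (above the median of named entries in at least 3 arrays), trend and robust variance, the plain model, only the groups compared, the mean of entries, a Y-linked covariate, arrays of high or low Y-linked values only, the replicate number as a block, and each array left out. The fit of Y-linked kinds within genotype was added after the data were seen. The fit was tested on simulated data. Python 3.11.15, pandas 2.3.3, numpy 2.4.6 and matplotlib 3.10.9 were used.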

Additional observations from a re-analysis of the deposited data

Results flagged for a closer look

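Single arrays stood apart from the other 3 of their group, by Dixon's test, in 7 of the 105 groups of 4 arrays examined over the members. Chance alone gives about 1 in 20 such groups. Idua was at 6.86 in 7-month Cre+ replicate 2, against 7.17 in the nearest array of its group. Tpp1 was low in the same array, at 10.56 against 10.77. In 7-month Cre+ replicate 1 Arsb was high at 9.24 against 9.09, and Ppt1 was high at 9.62 against 9.36. Naglu was low in 4-month Cre+ replicate 1 at 7.19 against 7.48, Slc17a5 was low in 4-month Cre- replicate 2 at 9.51 against 9.92, and Arsa was low in 4-month Cre- replicate 1 at 4.91 against 4.95.

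The Cre difference of Lipa changed between the ages by -0.84, and that of Acp5 by -0.72, each by the limma test of the difference itself. For both genes the values of the 7-month Cre+ group lay below those of the other 3 groups.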

How the results depend on the processing

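Of 6 members called at 4 months, 4 kept their call without each array in turn and 1, Hexa, kept it under every alternative run; of 17 called at 7 months, 13 and 8 did. Without each array in turn, the members higher in Cre+ kidneys numbered 4 to 6 at 4 months (0 lower) and 9 to 11 at 7 months (5 to 8 lower), those whose Cre difference changed with age by an amount above 0 numbered 0 to 1 and below 0 1 to 2, and those higher and lower with age in Cre+ kidneys 1 to 2 and 3 to 4. The Y-linked comparison gave 2 to 5 higher and 0 to 1 lower in Cre- kidneys, 0 to 1 and 0 to 1 in Cre+ kidneys, and 0 to 2 lower for their difference.

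Among arrays of high Y-linked values alone 2 members were higher at 4 months, and among arrays of low values alone 1 was, with 3 lower at 7 months; in either kind 0 had a change of the Cre difference below 0 (limma; 4 were below 0 at an unadjusted p below 0.05 over all arrays). In Cre+ kidneys the counts with age were then 0 higher and 1 lower (high) and 2 lower (low). The shares of all genes called in these smaller sets are not reported here. A loss of calls over all genes and one among the members therefore cannot be told apart. With quantile normalization, median centring, the filter on dim genes, trend and robust variance or the Y-linked covariate, 1 member, Gla, had a change of the Cre difference above 0 (0.65, 0.71, 0.68, 0.68 and 0.67). The members higher with age in Cre+ kidneys were 5 under centring and 4 under the filter and under trend and robust variance. Pla2g15 at 7 months turned to -0.003 with the mean of its entries, one of which is dim. The causes of the other changes were not tested. Ids was called lower at 7 months under quantile normalization, centring, the plain model and the Y-linked covariate (adjusted p = 0.047, 0.029, 0.048 and 0.046), Arsa higher under the filter (0.047) and Scpep1 higher under quantile normalization (0.0496).

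With the replicate block, Smpd1 (-0.46, adjusted p = 0.059) and Pla2g15 (0.40, adjusted p = 0.051) lost their 7-month calls. Correlations of deviations between same-numbered arrays of 2 groups ran from -0.47 to 0.30; all positive ones joined arrays of the same Y-linked kind and all negative ones arrays of different kinds. Since the signs follow the Y-linked kind, these correlations cannot show whether the numbers pair samples between Cre+ and Cre- groups. Between the 2 Cre+ groups every pair was above 0.1 (0.17 to 0.30), and there the block left 2 members higher and 4 lower with age, the counts without it.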
